A study of Mus musculus with 9 samples.

Results

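The genes described here are 10 markers of the vascular endothelium, the cell layer that lines blood vessels: Pecam1, Cdh5, Kdr, Flt1, Tek, Tie1, Emcn, Cldn5, Esam and Eng. They were chosen by symbol out of the 18193 genes that the arrays read through a probe set with 1 gene symbol, and 15 probe sets of the 45101 on the array carry them. Each gene is given by its brightest probe set over the 9 arrays, and the others are given beside it. Of the 10 genes, 8 passed a filter on low values and were tested, and Pecam1 and Tie1 did not pass it. RNA came from optic cups of E11.5 mouse embryos, cut out by laser microdissection, and was hybridised to Affymetrix Mouse Genome arrays. The 3 regions have 3 arrays each, lettered A, B and C: the optic fissure, the nasal cup and the temporal cup. For fissure array A the labels describe cup cells no more than 5 cell diameters from the fissure's edge. For fissure arrays B and C they give no margin. The labels give the mice no genotype, strain or treatment, and leave unsaid if a letter marks captures of 1 embryo or litter. The series calls the arrays of a region biological replicates, so p-values rest on how much these arrays vary.

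The optic fissure is a groove on the ventral side of the optic cup, through which mesenchyme and the hyaloid vessels enter the eye before its margins fuse. Endothelial cells form these vessels under control of VEGF, which acts through the receptor tyrosine kinases KDR and FLT1, and of the angiopoietins, which act through TEK with TIE1 as its partner. Junction proteins such as VE-cadherin and claudin-5 hold the cells together, and endoglin serves as a co-receptor for ligands of the TGF-β family.

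Of the vascular endothelial genes, Pecam1 and Tie1 were too dim to be tested. Of the 8 tested ones 7 had a higher mean log2 value in fissure than in nasal and temporal captures, by 0.28 to 0.74, without passing the test. Over all tested genes, 56.0% were higher in fissure. Endoglin was the gene of the 8 with the largest fissure difference: every fissure array exceeded every nasal and temporal array, as in 8.41% of all genes. In a second, dimmer probe set of endoglin the regions overlapped. Kdr was the only one of the 8 in which every nasal array lay below every temporal array, as in 3.71% of all genes. The genes also moved together from array to array inside the fissure and temporal regions. All 8 were highest on array A among the fissure arrays and among the temporal arrays, as were 9.55% of all genes. Among the nasal arrays 1 of 8 was highest on array A.

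Values are probe set intensities in linear units as deposited. The 40th percentile of an array, above which a gene had to lie on at least 3 arrays to be tested, was 15.7 to 17.5 intensity units, and array medians were 27.5 to 30.3. Among the fissure arrays, B differed most from the rest. Its weight was 0.332 in a fit that weights arrays by how well they follow the model, against 3.61 for fissure array A. The calls of endothelial genes that changed without fissure array B are given with and without it. The fissure differences of Cdh5, Cldn5 and Flt1 from the nasal and temporal mean rose without it to 0.49, 0.41 and 0.35, and did not pass limma's adjusted test. The 3′ to 5′ intensity ratio of Gapdh, in which a high ratio means that the 5′ end of the transcript is less well represented, was 8.12, 4.93 and 14.96 on fissure arrays A, B and C, 6.08, 4.90 and 8.77 on nasal arrays and 7.42, 4.46 and 6.70 on temporal arrays. It was lowest on array B in every region. In these bulk captures, fewer cells of a type and less RNA per cell cannot be told apart. Lens, macrophage and mesenchyme transcripts were present in the captures besides those of the cup, and their values stand with the gene lists further on.

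Upstream sequences of 3 of the genes are shown because the results turn on them: Eng and Emcn, which had the largest fissure differences, and Kdr, whose nasal arrays all lay below its temporal arrays. RefSeq's promoter table for build GRCm38.p6 matched 7 of the 10 genes by symbol, and Pecam1, Cdh5 and Esam had no entry there. Each line gives the 250 bases before the start that this table uses for the gene, 5′ to 3′ on the gene's strand. RefSeq's span of the whole gene begins further upstream for Kdr and Emcn, so the Kdr window lies inside that span and the Emcn window reaches its first bases. Capitals mark AGGAAG, a core recognised by ETS factors, and ACAAT, a core recognised by SOX factors, each with its reverse complement (CTTCCT and ATTGT).
Eng, chr2:32646345-32646594, plus strand: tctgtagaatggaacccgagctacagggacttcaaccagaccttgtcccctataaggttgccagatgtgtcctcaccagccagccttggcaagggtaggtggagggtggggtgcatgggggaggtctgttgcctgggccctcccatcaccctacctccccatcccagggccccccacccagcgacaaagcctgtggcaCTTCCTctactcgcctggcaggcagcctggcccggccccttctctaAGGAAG
Emcn, chr3:137340828-137341077, plus strand: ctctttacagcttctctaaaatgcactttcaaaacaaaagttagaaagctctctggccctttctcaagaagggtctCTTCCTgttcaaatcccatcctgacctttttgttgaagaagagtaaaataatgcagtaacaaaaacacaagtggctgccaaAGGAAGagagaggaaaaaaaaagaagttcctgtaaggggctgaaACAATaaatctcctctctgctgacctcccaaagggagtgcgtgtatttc
Kdr, chr5:75978456-75978705, minus strand: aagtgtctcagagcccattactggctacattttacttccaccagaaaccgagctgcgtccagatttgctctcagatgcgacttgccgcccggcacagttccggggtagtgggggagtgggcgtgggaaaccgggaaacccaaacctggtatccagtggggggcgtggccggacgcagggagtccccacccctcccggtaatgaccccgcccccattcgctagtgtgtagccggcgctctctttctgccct
In Eng the ETS core occurred at bases -52 to -47 on the reverse strand and at -6 to -1 on the forward strand, counted back from the start. In Emcn it occurred at -174 to -169 on the reverse strand and at -93 to -88 on the forward strand, with ACAAT at -49 to -45. The Kdr window held neither. Over the 7 genes, AGGAAG was found in 4 (Flt1, Tie1, Emcn and Eng), against 29.5% of the 32851 promoter windows in the table. ACAAT was found in 2 (Tek and Emcn), against 27.7% of all windows. ACGTG, the core of the hypoxia response element, and the GATA motif AGATAA were found in 0 of the 7, against 16.6% and 9.99% of all windows. Both strands were searched, no match of a motif overlapped one of another in the windows of the 7 genes, and a match is a description of the letters only.

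**Figure D1:**
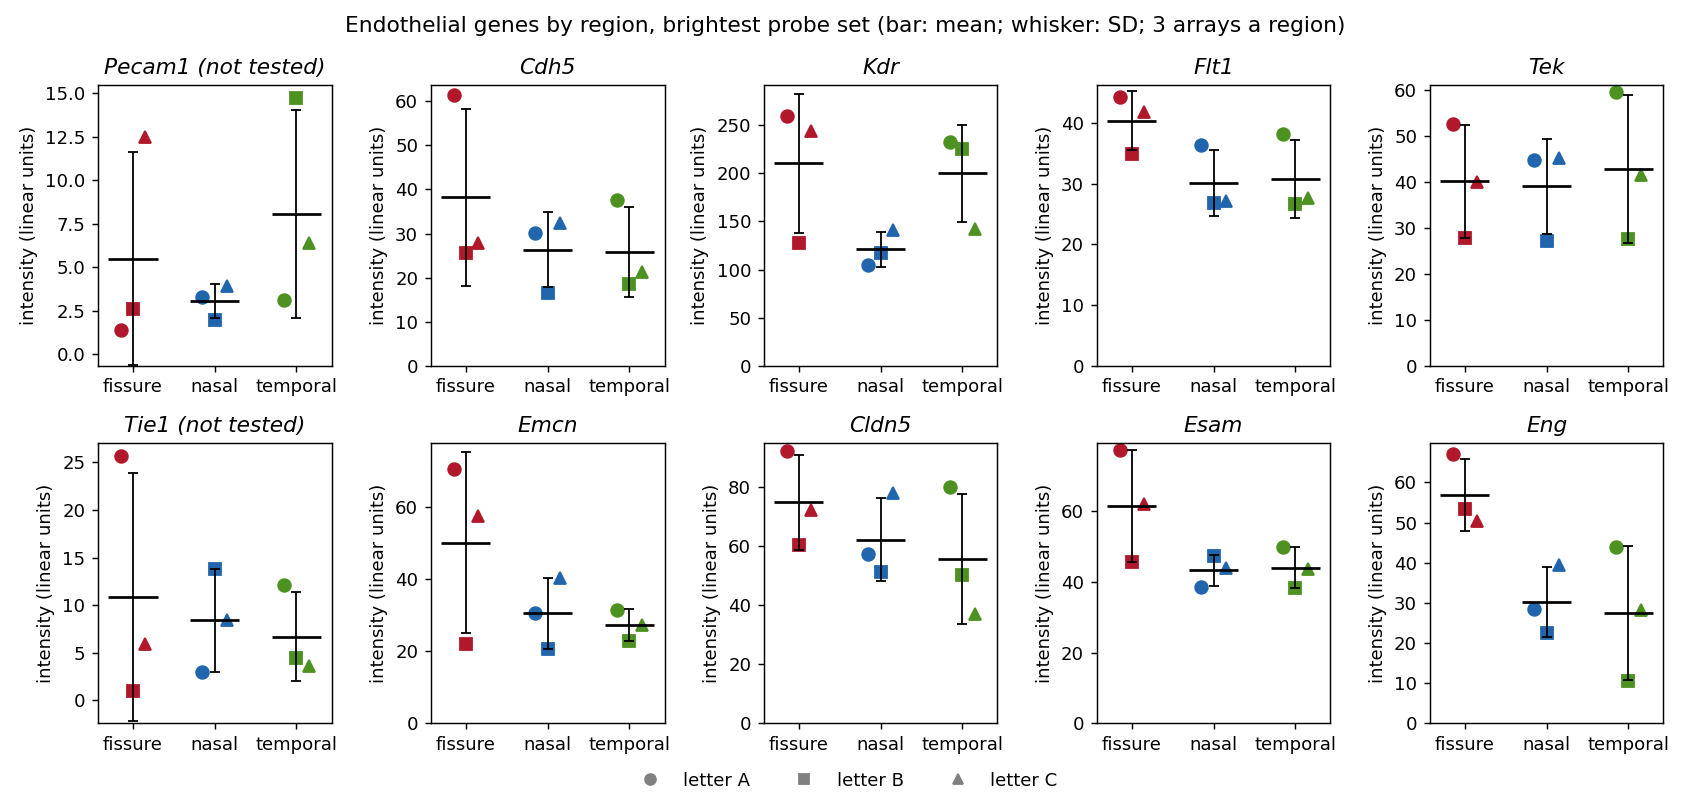
Intensity (linear units, y axis) of the brightest probe set of each of the 10 endothelial genes in fissure, nasal and temporal captures (x axis). Points are arrays, with the sample letter as symbol, the bar is the mean and the whisker the SD over 3 arrays. Eng at 50.4 to 67.1 in fissure lies above its other 6 arrays, and Kdr at 104.8 to 140.7 in nasal lies below its temporal arrays, while Pecam1 lies at 1.4 to 14.7 and Tie1 at 1.0 to 25.7 over all regions.

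Eng, endoglin, is a surface glycoprotein of endothelial cells that binds TGF-β family ligands together with their signalling receptors. Its intensity was 67.1, 53.3 and 50.4 on fissure arrays A, B and C, 28.6, 22.4 and 39.5 on nasal arrays and 43.9, 10.6 and 28.2 on temporal arrays. All fissure arrays were above all others, and the lowest value was that of temporal array B. On the log2(intensity + 16) scale, which understates the change of dim genes, the fissure exceeded the mean of nasal and temporal by 0.74 (SE 0.23, 95% confidence interval 0.24 to 1.25), a 1.67-fold difference on that scale. This did not pass limma's test over all 12770 genes (adjusted p = 0.0739). It passed once the sample letter entered the fit as a block (limma adjusted p = 0.0212). It also passed without temporal array A, at 0.88 (limma adjusted p = 0.0285). Without fissure array B it did not pass, at 0.77 (limma adjusted p = 0.0865). A second Eng probe set read 56.0, 21.0 and 17.1 in fissure, 7.2, 13.1 and 18.9 in nasal and 23.6, 13.2 and 11 in temporal captures. In this dimmer probe set the groups overlapped, and the fissure difference was 0.57 (SE 0.25, limma adjusted p = 0.248 over all probe sets).

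Against each region by itself, Eng was higher in fissure than in nasal captures by 0.67 (SE 0.27, limma adjusted p = 0.191; 0.0652 with the letter as a block). It was higher in fissure than in temporal captures by 0.81 (SE 0.27, limma adjusted p = 0.115), which passed in the fit blocked by letter (adjusted p = 0.0331) and without temporal array A (1.08, adjusted p = 0.0444). These comparisons share the fissure arrays. Within letters, Eng was highest in the fissure in A, B and C alike, by 0.69, 1.12 and 0.42 on the log2 scale over the mean of the nasal and temporal array of the same letter.

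Emcn, endomucin, is a sialomucin on the surface of capillary and venous endothelium. Its intensity was 70.6, 22.1 and 57.4 on fissure arrays, 30.6, 20.5 and 40.3 on nasal arrays and 31.5, 22.8 and 27.4 on temporal arrays. Fissure arrays A and C were above all 6 other arrays, and fissure array B was below all of them except nasal array B. The difference between fissure and the mean of nasal and temporal was 0.49 (SE 0.24, 95% interval -0.04 to 1.02, limma adjusted p = 0.266). Without fissure array B it was 0.84 (limma adjusted p = 0.0152), with 0.80 against nasal (adjusted p = 0.0362) and 0.89 against temporal captures (adjusted p = 0.0256), all past the threshold. Without the letter B arrays of all regions it was 0.73 (limma adjusted p = 0.0231). With the letter as a block it did not pass (limma adjusted p = 0.0701), nor did Emcn against nasal (0.163) or temporal captures (0.102). With all arrays, Emcn differed from nasal by 0.45 (limma adjusted p = 0.449) and from temporal by 0.53 (limma adjusted p = 0.349).

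Among the VEGF receptors, Kdr encodes the main signalling receptor for VEGF-A on endothelial cells and is also known from progenitor cells of the embryonic retina. Kdr had 260.0, 127.6 and 244.2 intensity units on fissure arrays, 104.8, 117.7 and 140.7 on nasal arrays and 232.6, 225.5 and 142.2 on temporal arrays. Nasal captures were low as a group, while fissure array B and temporal array C lay near the highest nasal array. Nasal was 0.64 below temporal on the log2 scale (SE 0.26, 95% interval -1.21 to -0.06, limma adjusted p = 0.9999), so it failed the adjustment although the groups did not overlap. Of all 12770 genes, 3.71% had every nasal array below every temporal array. Fissure exceeded nasal by 0.68 (SE 0.26, 95% interval 0.10 to 1.25, limma adjusted p = 0.183), and without fissure array B by 0.98, which passed (limma adjusted p = 0.0219). With the letter as a block the difference from nasal did not pass (limma adjusted p = 0.127). Fissure and temporal captures differed by 0.04 with an interval of -0.54 to 0.62 (limma adjusted p = 0.961, with the sign turned under other scalings), and by 0.34 without fissure array B (limma adjusted p = 0.357). Against the mean of both other regions, Kdr in fissure was 0.36 higher (SE 0.23, interval -0.14 to 0.86, limma adjusted p = 0.404). That value was 0.66 without fissure array B (limma adjusted p = 0.0513).

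Flt1, the receptor that binds VEGF-A tightly and whose soluble form holds it back from KDR, read 44.3, 34.9 and 41.8 in fissure, 36.4, 26.8 and 27.1 in nasal and 38.1, 26.6 and 27.6 in temporal captures. Fissure was the highest region within each letter, yet fissure array B lay below nasal array A and temporal array A. The difference between fissure and the mean of nasal and temporal was 0.28 (SE 0.14, interval -0.03 to 0.60, limma adjusted p = 0.275). A further Flt1 probe set that passed the filter read 43.9, 31.2 and 35.9 in fissure, 26.9, 12.6 and 31.4 in nasal and 41.4, 20.0 and 5.3 in temporal captures, with a difference of 0.51 (SE 0.28, limma adjusted p = 0.354). The remaining Flt1 probe sets read 1.3 to 22.2 and 1.8 to 25.8 over the 9 arrays and were not tested.

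The angiopoietin receptor Tek showed the smallest fissure difference of the 8. It read 52.6, 27.9 and 39.9 in fissure, 44.8, 27.2 and 45.3 in nasal and 59.5, 27.5 and 41.5 in temporal captures. Array B was the lowest in every region and the regions overlapped throughout. The difference was -0.02 (SE 0.21, limma adjusted p = 0.978), and its interval of -0.48 to 0.44 leaves room for a change of that size either way. Without fissure array B the difference was 0.15 (limma adjusted p = 0.698). Tie1, the partner receptor without a well established ligand of its own, read 25.7, 1.0 and 5.9 in fissure, 3.0, 13.8 and 8.4 in nasal and 12.1, 4.4 and 3.6 in temporal captures. Only fissure array A was above its 40th percentile, so Tie1 had no usable level on the others. Fitted without the filter, its difference was 0.11 (SE 0.27, limma adjusted p = 0.895).

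Of the junction genes, Esam encodes an immunoglobulin-like adhesion molecule of endothelial contacts and platelets. It read 77.1, 45.5 and 61.8 on fissure arrays, 38.5, 47.2 and 43.8 on nasal arrays and 49.9, 38.3 and 43.5 on temporal arrays. Fissure arrays A and C were above all others, and fissure array B was among the nasal and temporal values. The difference from the mean of nasal and temporal was 0.36 (SE 0.15, interval 0.02 to 0.70, limma adjusted p = 0.192), and without fissure array B it was 0.52 (limma adjusted p = 0.0478). It did not pass with the letter as a block (limma adjusted p = 0.102) or without the letter B arrays (0.0592). Against nasal it was 0.37 (limma adjusted p = 0.302), and against temporal 0.36 (limma adjusted p = 0.328).

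Cdh5, VE-cadherin of the endothelial adherens junction, read 61.4, 25.5 and 27.8 in fissure, 30.2, 16.6 and 32.3 in nasal and 37.6, 18.6 and 21.3 in temporal captures. Fissure array A stood above the rest and the other fissure arrays fell among the nasal and temporal ones, for a difference of 0.33 (SE 0.23, interval -0.18 to 0.84, limma adjusted p = 0.458). A second Cdh5 probe set read 0.4 to 14.1, below the filter on every array. Cldn5, the tight junction claudin of brain and retinal vessels, read 92.3, 60.4 and 72.3 in fissure, 57.4, 51.2 and 78.1 in nasal and 80.2, 50.3 and 37.0 in temporal captures. These ranges overlapped, and the difference was 0.29 (SE 0.20, interval -0.15 to 0.74, limma adjusted p = 0.446). Pecam1, the adhesion molecule most used to stain vessels, read 1.4, 2.6 and 12.5 in fissure, 3.3, 2.0 and 3.9 in nasal and 3.1, 14.7 and 6.4 in temporal captures. It lay under the 40th percentile on all 9 arrays, and without the filter its difference was -0.02 (SE 0.19, limma adjusted p = 0.983). The endothelial label therefore rests on the other 8 genes here, since the probe sets of Pecam1 and Tie1 gave no usable signal.

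Counted together, 0 of the 8 tested genes passed limma's adjusted test in the contrast of fissure with the nasal and temporal mean, where 8.60% of the 12770 genes passed. At an unadjusted p below 0.05 there were 2, Esam and Eng, both higher in fissure, against 22.1% of all genes. With the letter as a block 1 of the 8 passed (Eng), against 17.0% of all genes, and without fissure array B 2 passed (Emcn and Esam), against 13.5%. At an unadjusted p below 0.05 there were 5 with the block, against 32.1% of all genes. In a fit with array weights 4 passed (Emcn, Eng, Esam and Kdr), against 32.1%. Of the 8 differences 7 were above 0, with a median of 0.34, while 56.0% of all genes were above 0, with a median of 0.04. A gap between fissure and all other arrays was seen in 1 of 8 (Eng), and in 8.41% of all genes.

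Against nasal captures alone 0 of 8 genes passed limma's adjusted test, 0 passed with the letter as a block, and 2 had an unadjusted p below 0.05 (Kdr and Eng), where 6.37%, 12.5% and 18.5% of all genes did. Without fissure array B, 2 passed against nasal (Kdr and Emcn), where 9.75% of all genes did. Against temporal captures 0 of 8 passed, 1 passed with the letter as a block and 1 had an unadjusted p below 0.05, Eng in both cases, where 5.36%, 12.1% and 18.2% of all genes did. Without fissure array B, 1 passed against temporal (Emcn), where 9.09% did. The differences ran from 0.02 to 0.68 against nasal, all 8 above 0, and from -0.06 to 0.81 against temporal, 7 above 0.

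Between nasal and temporal captures 0 of 8 passed limma's adjusted test, with or without the letter as a block, where 0.0470% and 0.133% of all genes passed. Only Kdr had an unadjusted p below 0.05, as 2.91% of all genes did. The other 7 genes differed by -0.08 to 0.15 on the log2 scale.

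**Figure D2:**
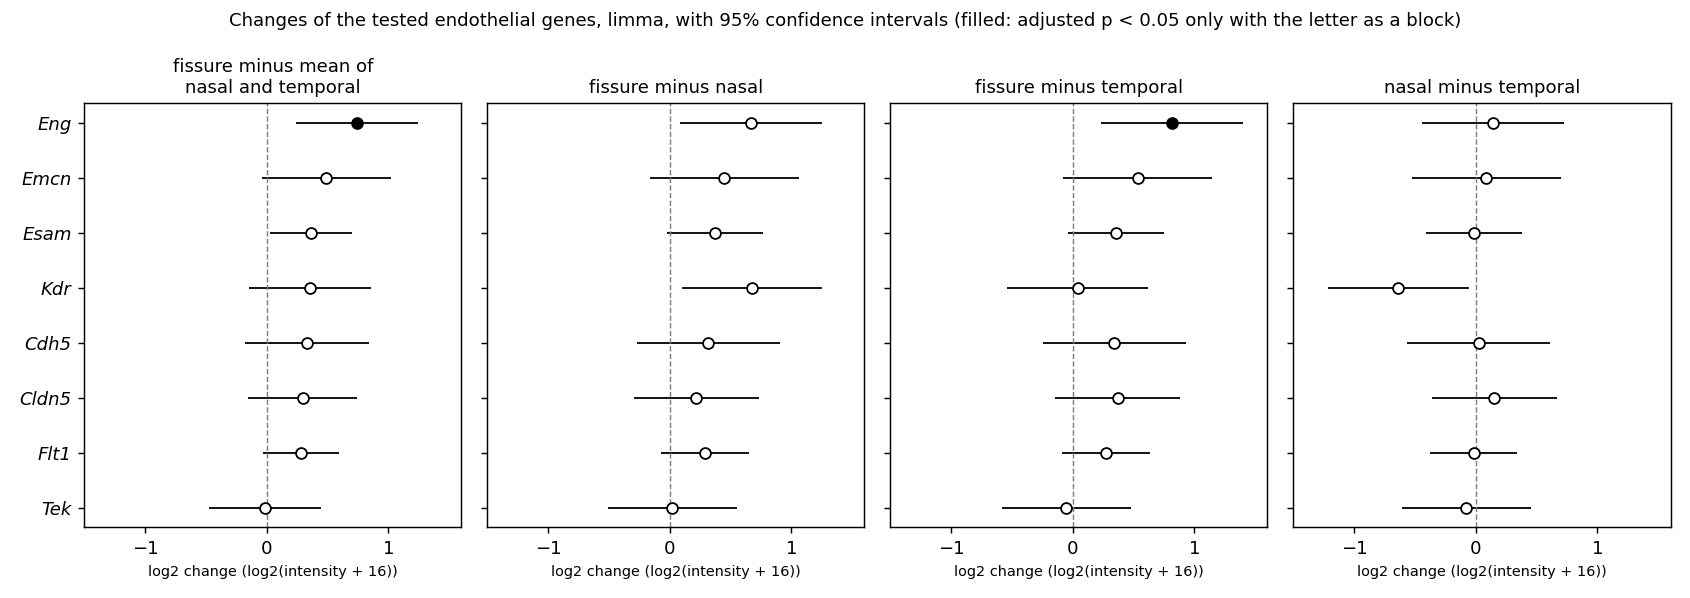
Log2 change on the log2(intensity + 16) scale (x axis) of the 8 tested endothelial genes (rows) in the 4 comparisons, with 95% confidence intervals from limma. A filled point passed an adjusted p of 0.05 only with the letter as a block, which happened for Eng against the nasal and temporal mean (0.74) and against temporal (0.81). In the nasal minus temporal panel Kdr at -0.64 stands off from the other 7.

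The genes also varied together from array to array within a region. The summed intensity of all 10 was 752.5, 400.8 and 614.0 on fissure arrays A, B and C, 377.6, 345.4 and 459.4 on nasal arrays and 588.5, 439.3 and 378.7 on temporal arrays. Fissure array B thus fell below nasal array C and temporal arrays A and B. All 8 tested genes were highest on array A among the fissure arrays, and all 8 among the temporal arrays, but 1 of 8 among the nasal arrays (Flt1). Over all tested genes these shares were 28.8%, 24.7% and 27.2%, and 9.55% of genes were highest on array A in both fissure and temporal captures. Array B was lowest for 7 of 8 genes in fissure, 6 of 8 in nasal and 6 of 8 in temporal captures, against 50.2%, 37.4% and 42.1% of all genes. The Gapdh ratio was also lowest on array B in each region, and its part in this pattern was not tested. With that ratio as a covariate, added after seeing the data, the fissure difference was 0.60 for Eng (limma adjusted p = 0.149), 0.24 for Emcn, 0.29 for Esam and 0.20 for Kdr.

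Pearson correlations between the 28 pairs of tested genes, on log2 values over the 9 arrays, had a median of 0.68, against 0.02 for all pairs of tested genes. After each region's mean was taken off, the median was 0.63, with a range of 0.12 to 0.89 and all 28 above 0. After the letter's mean was taken off as well, it was 0.40, with a range of -0.67 to 0.91 and 21 of 28 above 0. The points share the arrays, their scaling and their RNA quality, so these values are descriptions.

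**Figure D3:**
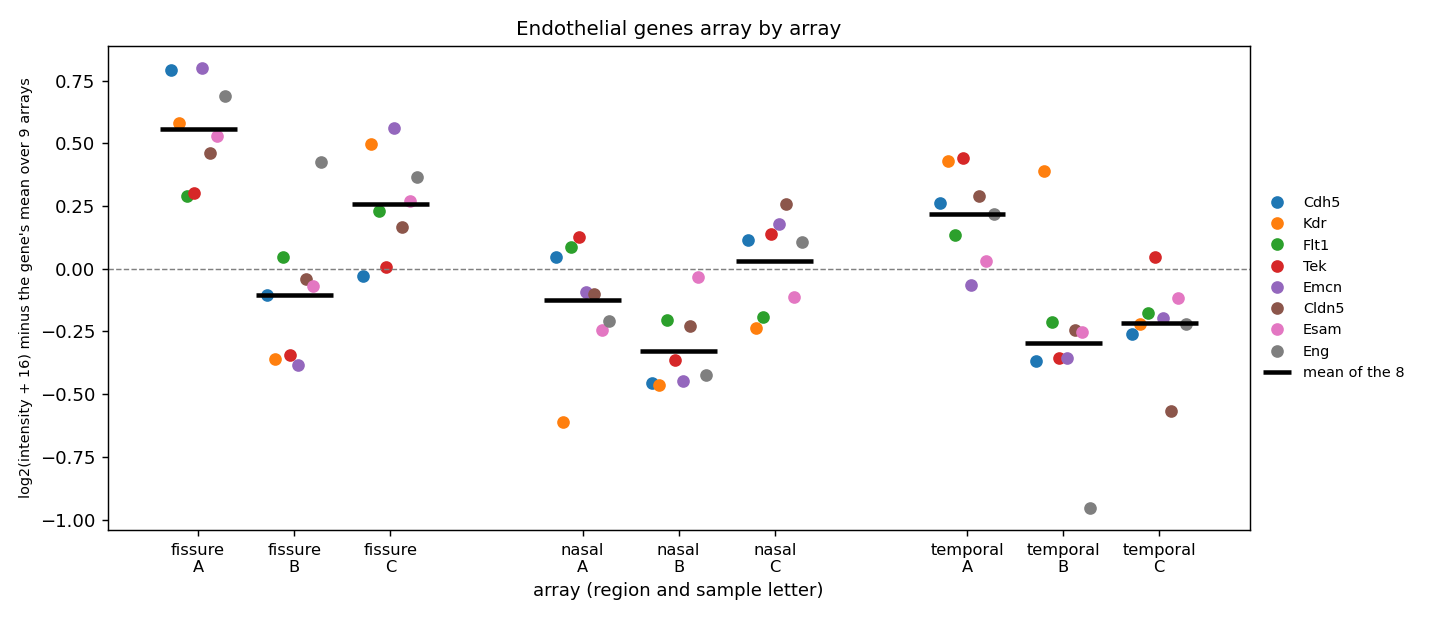
Log2(intensity + 16) of each of the 8 tested endothelial genes minus its mean over 9 arrays (y axis), array by array (x axis), with colours for genes and a black bar for their mean. The mean is highest on fissure array A (0.56), lies at 0.26 on fissure array C and at -0.10 on fissure array B, and runs from -0.33 to 0.03 on nasal and from -0.29 to 0.22 on temporal arrays.

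The genes outside the list whose log2 values followed this mean most closely over the 9 arrays were Cd93 (Pearson r = 0.98), Synpo (0.97), Zfp867 (0.95), Evl (0.95), Stk10 (0.94), Arpc4 (0.94), Icam2 (0.94) and Cd34 (0.94). Cd93, Icam2 and Cd34 are surface proteins known from endothelial cells and were on the list of further endothelial genes. Cd93 read 139.3, 58.0 and 98.0 in fissure, 55.2, 50 and 62.2 in nasal and 97.5, 41.5 and 53.6 in temporal captures. Icam2 read 39.9, 19.1 and 40.3 in fissure, 24.4, 13.3 and 28.0 in nasal and 31.7, 12.1 and 16.1 in temporal captures. Cd34 read 167.5, 81.2 and 136.5 in fissure, 66.4, 41.2 and 61.6 in nasal and 94.5, 54.6 and 60.6 in temporal captures. In all of them array B was lowest in fissure and nasal captures, and temporal array A was the highest temporal array. They were picked for following the mean over these same arrays, so this likeness came with the choice. After region means were taken off, the closest were Cd93, Synpo, Tpcn1, Plcd1, Acbd4, Cd34, Sucla2 and Ckap4 (r = 0.97 to 0.95), of which Cd93, Synpo and Cd34 appear both times.

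Around these markers, further genes of vessels were read from lists chosen for their role. Of 51 further endothelial genes on the arrays 37 were tested, and 9 were higher and 1 lower in fissure than in the mean of nasal and temporal by limma's adjusted test, where 5.72% of all genes were higher and 2.88% lower. Their median difference was 0.45, against 0.04 over all tested genes. Calcrl, the receptor component for adrenomedullin, read 127.1, 153.9 and 112.8 in fissure, 11.9, 14.3 and 14 in nasal and 41.1, 18.4 and 42.0 in temporal captures, a gap with no overlap and a difference of 1.95 (SE 0.18, limma adjusted p = 6.1e-05). Edn1, the vasoconstrictor peptide endothelin-1, was higher by 1.46 (SE 0.18), and Stab1, a scavenger receptor of sinusoidal endothelium and macrophages, by 1.38 (SE 0.23). Cd34, Sh2d3c, Ecscr, Ctla2a, Mmrn2 and Icam1 were higher by 0.65 to 0.85. Of these, Ctla2a passed the filter on low values only through its fissure arrays, where it was high. It read 6.0 to 16.2 in nasal and temporal captures, below the filter's level on each array. Sh2d3c and Icam1 were also mostly below that level there, at 4.0 to 17.6 and 2.9 to 19.4. The count of 9 includes these genes. Mfsd2a, a lipid transporter of the blood-brain barrier, was lower, with a difference of -1.08 (SE 0.15). With the letter as a block 14 were higher and 1 lower, where 17.0% of all genes passed in either direction. The number higher was 14 without fissure array B, where 13.5% of all genes passed in either direction. It was 4 without fissure A, nasal A or nasal B, 5 without fissure C or temporal C, and 6 without temporal B. The number passing over all 12770 genes also fell without nasal A, to 811 from 1098 with all arrays.

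Endothelial transcription factors had 24 of 26 tested genes, of which 5 were higher in fissure and 0 lower by limma's adjusted test, with a median of 0.34. Over all genes 5.72% were higher and 2.88% lower. Mef2c read 187.4, 150.0 and 168.3 in fissure, 56.7, 52.2 and 58.6 in nasal and 67.2, 50.4 and 35.3 in temporal captures, a difference of 1.42 (SE 0.16). Lyl1, Gata2, Fli1 and Hhex were higher by 0.87, 0.86, 0.85 and 0.79. On all 5 genes every fissure array was above every other array, as in 8.41% of all genes. These 5 had passed a test on the same arrays, so the gap largely came with the choice. Lyl1, Gata2, Fli1 and Hhex also act in blood cells, and Mef2c in muscle, neural crest and macrophages. Erg, an ETS factor of endothelium, and Klf2, a factor induced by blood flow, did not pass the filter. Without fissure array B, 9 of these genes were higher, where 13.5% of all genes passed in either direction. Without fissure array A or C, 3 were higher. With the letter as a block 7 were higher and 1 lower, against 17.0% of all genes in either direction.

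Signals and further receptors of vessels had 29 of 33 tested genes, 5 higher and 2 lower in fissure by limma's adjusted test, with a median of 0.20. Over all genes 5.72% were higher and 2.88% lower. The VEGF co-receptor Nrp1 read 239.4, 177.2 and 219.5 in fissure, 100.7, 63.6 and 69.5 in nasal and 124.8, 79.9 and 87.9 in temporal captures, a difference of 1.15 (SE 0.18, limma adjusted p = 0.00193). Its relative Nrp2 was higher by 0.84, Vegfc, the lymphatic VEGF, by 0.78, the TGF-β receptor Tgfbr2 by 1.01 and the BMP binding protein Bmper by 1.0. Jag1, a Notch ligand that is also a gene of the early retina and lens, was lower, with a difference of -2.13 (SE 0.23), as was Hey1, a target of Notch, with -0.88 (SE 0.15). The number higher was 2 without fissure array A and 3 without fissure array C. With the letter as a block 7 were higher and 2 lower, against 17.0% of all genes in either direction. The ligands Vegfa, Angpt1 and Angpt2 did not pass. Vegfa read 118.9, 82.0 and 91.5 in fissure, 136.4, 139.7 and 105.1 in nasal and 97.1, 154.4 and 81.0 in temporal captures, a difference of -0.24 (SE 0.19, limma adjusted p = 0.531). The angiopoietins Angpt1 and Angpt2 differed by -0.15 (SE 0.23, limma adjusted p = 0.766) and 0.20 (SE 0.17, limma adjusted p = 0.556). In nasal against temporal captures 0 genes of these 3 lists passed limma's adjusted test, also with the letter as a block, while 2, 2 and 1 of the further endothelial genes, transcription factors and signals had an unadjusted p below 0.05 (of 37, 24 and 29 tested), against 2.91% of all genes.

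Markers of other cell types moved with the same contrast, in which 5.72% of all genes were higher and 2.88% lower by limma's adjusted test. Of 20 macrophage and leukocyte markers 18 were tested, and 17 were higher in fissure, with a median difference of 1.77. This count and median include genes that passed the filter only through the fissure arrays, where they were high. Such genes were C1qa, C1qc and Aif1, which read 1.3 to 9.4 in nasal and temporal captures. Their summed intensity was 3249 to 4034 in fissure, 684.5 to 962.1 in nasal and 586.3 to 844.1 in temporal captures, with Fcer1g and Itgam below the filter. Periocular mesenchyme had 5 higher (3 without fissure array A or C) and 2 lower of 15 tested genes, with sums of 1914 to 3104 in fissure, 1494 to 1902 in nasal and 1298 to 2145 in temporal captures. Erythroid markers, whose cells travel inside vessels, had 0 of 11 tested genes past limma's adjusted test. At an unadjusted p below 0.05 there were 5, against 22.1% of all genes. With the letter as a block 5 were higher, where 17.0% of all genes passed in either direction. By the adjusted test 3 were higher without fissure array B, where 13.5% of all genes passed in either direction, and 1 without nasal C or temporal B. Summed erythroid intensity was 13561 to 18372 in fissure, 9639 to 15069 in nasal and 11741 to 13603 in temporal captures. Lens markers had 4 higher of 6 tested.

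Of 17 genes of pericytes and vascular smooth muscle, the cells that wrap vessels, 8 were tested. Pdgfrb, their PDGF receptor, which mesenchyme also expresses, read 487.8, 181.2 and 551.3 in fissure, 92.4, 49.4 and 196.9 in nasal and 152.6, 65.0 and 153.7 in temporal captures, a difference of 1.64 (SE 0.42, limma adjusted p = 0.0314). Like 4 of the 8 endothelial genes and 17.6% of all tested genes, it was lowest on array B in every region. Its value on fissure array B lay below that on nasal array C. It did not pass without fissure A, fissure C, nasal A, nasal B or temporal B (limma adjusted p = 0.0556 to 0.159), nor with no filter (0.0568), a pseudocount of 1 (0.077) or the mean over its probe sets (0.051). By the same limma test over all 9 arrays no other gene of this list passed. With the letter as a block 2 passed, Pdgfrb among them, against 17.0% of all genes in either direction. The pericyte markers Rgs5, Kcnj8 and Higd1b were below the filter. Genes of the cup itself ran the other way, with 4 of 11 neural retina genes lower and 0 higher (1 higher without fissure array B), and 4 of 9 pigment epithelium genes lower and 1 higher. Surface ectoderm had 3 lower and 1 higher of 6 tested. The part of these cell types in the endothelial differences was not tested.

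**Figure D4:**
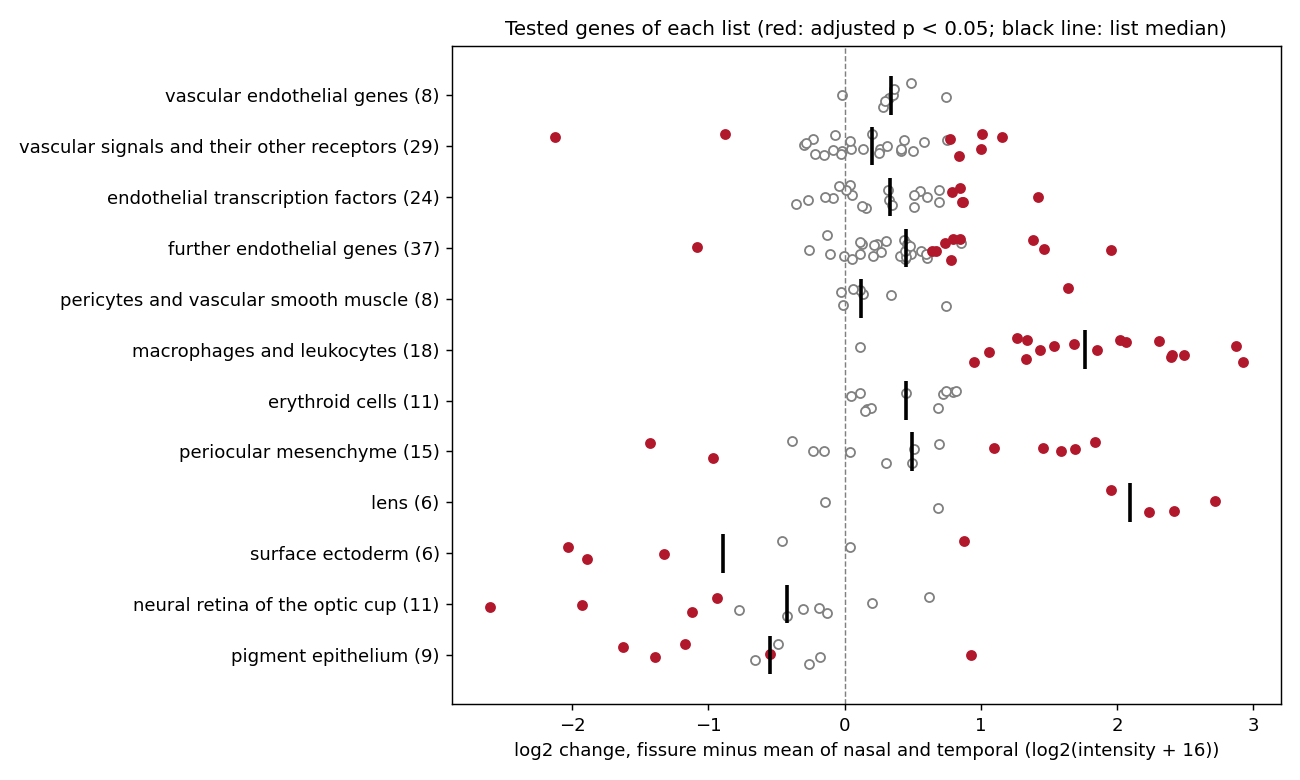
Log2 change between fissure and the mean of nasal and temporal captures (x axis) for the tested genes of each list (rows, with the number tested). Points are genes, red where limma's adjusted p was below 0.05, and the black line is the list's median. The 8 endothelial genes sit at a median of 0.34 with no red point, the further endothelial genes at 0.45 with 10 red points, and the macrophage genes at 1.77 with 17.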

How the data were processed

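Intensities of 45101 probe sets per array were deposited by the authors on a linear scale. Their probe summary and scaling are not given in the sources used here. Each array's mean after trimming 2% from both ends came to 150. The platform annotation gave names (34945 probe sets with 1 symbol, 932 with several, 9160 unnamed, 64 controls). The brightest probe set by mean stood for a gene, and a gene was tested if on 3 or more arrays it exceeded that array's 40th percentile. Values became log2(intensity + 16) and entered a linear model with 1 mean per region, over all 9 arrays (lmFit and eBayes of limma 3.58.1, R 4.3.3). Benjamini-Hochberg adjustment ran over all 12770 tested genes, and a gene passed below 0.05. The number of arrays limits precision. The fit was tested on simulated data. Figures used matplotlib 3.10.9.

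The members and lists were chosen with earlier results of these data known. Named genes were all members, list genes past the test, the 4 smallest p-values of a list, Vegfa, Angpt1, Angpt2 and Nrp1, and the 8 genes most like the members' mean on each measure. Of these, genes with nothing to add are left to the lists' counts. Whether letters pair the arrays was checked. Deviations from region means correlated at 0.17 to 0.49 in the 9 same-letter pairs and at -0.44 to 0.22 in the 18 others. The letter was therefore also used as a block, although these ranges overlap and the labels do not say what a letter stands for. Counts with the block are given for the endothelial genes and for the vascular, pericyte and erythroid lists. Counts of the other lists, some of which the block also moved, are those without it. Alternatives were the filter, pseudocounts of 1 and 64, quantile normalization and median centring, the mean over probe sets and each probe set by itself, trended robust eBayes, array weights, the letter block, only the regions compared, and leaving out each array. Leaving out the letter B arrays and the Gapdh covariate were added after seeing the data.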

Additional observations from a re-analysis of the deposited data

How the results depend on the processing

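Array weights moved the number of endothelial genes past the threshold from 0 to 4 for fissure against the nasal and temporal mean, 4 against nasal and 3 against temporal, in fits that called 4100, 2675 and 3133 of all 12770 genes. With the letter as a replicate block it was 1 for fissure against the mean and 1 against temporal, and the block changed no other call of these genes. These blocked fits called 2172 and 1541 of all genes. Without the letter B arrays the number of endothelial genes was 1 against the mean and 1 against temporal, in fits that called 1597 and 850 of all genes. Leaving out 1 array at a time gave 0 to 2 against the mean, 0 to 2 against nasal and 0 to 1 against temporal. Without fissure array B these fits called 1721, 1245 and 1161 of all genes. Without temporal array A they called 889 against the mean and 450 against temporal. For Eng against the mean, the adjusted p ran from 0.0122 to 0.286 over 22 alternatives. The signs that turned were of differences near 0. Tek against the mean was 0.049 with array weights and -0.17 to 0.15 without single arrays. Kdr against temporal was -0.0045 after quantile normalization, -0.0057 with arrays centred on their median, -0.13 with the Gapdh ratio as a covariate, and -0.17 to 0.34 without single arrays. The cause of these shifts was not tested. Signal limits Pecam1, below the 40th percentile on all 9 arrays, and Tie1, above it on 1.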
